A study of Homo sapiens with 4 samples.

Results

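Acidic tracts are stretches of a coding sequence in which nearly every codon encodes glutamate or aspartate. They were taken here as windows of 10 codons with at least 8 acidic codons, overlapping windows being merged, in the canonical coding sequences of protein-coding genes on the autosomes and chromosome X. The search of 19624 coding sequences found 1443 tracts in 1150 of them (5.86%). The crosslinking of PR100-FLAG in these tracts was compared with the rest of the same coding sequences, with glutamate and aspartate codons counted apart.

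The data came from 4 iiCLIP libraries of a single condition. HEK293T cells, a transformed line from human embryonic kidney, were transiently transfected with a doxycycline-inducible construct of 100 proline-arginine dipeptides with a triple FLAG tag, induced with 150 ng/ml doxycycline for 24 h, and irradiated with UV light of 254 nm at 160 mJ/cm2. Complexes were recovered with an antibody to FLAG, on a gel for replicates 1 to 3 and on beads for replicate 4, and the random barcode that tells cDNAs apart had 7 nt in replicates 1, 2 and 4 and 5 nt in replicate 3. The dipeptide was overexpressed in a dividing kidney line, and libraries of the controls were not analysed here, so the rest of each coding sequence was the only background. No source used here states that the libraries came from separate cultures, so the spread between them may be technical.

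In iiCLIP, UV light joins a protein to the RNA that it touches and reverse transcription stops at the remaining peptide, so the nucleotide before each cDNA marks the contact. The deposited values counted such crosslinking events, 1 per unique cDNA, and the libraries held 334057, 604816, 125694 and 179636 events in replicates 1 to 4. Poly(PR) is one of the dipeptide repeat proteins translated from the expanded repeat of C9orf72 in amyotrophic lateral sclerosis and frontotemporal dementia, and its arginines make it strongly basic. Acidic tracts are common in histone chaperones, nucleolar proteins and chromatin remodellers, where the negative charge of the protein binds basic partners. In the mRNA the same tracts are rich in purines. The 4 codons GAA and GAG (glutamate) and GAT and GAC (aspartate) all begin with GA. The comparison asked where the dipeptide met the mRNA of such tracts, not the acidic protein made from it.

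The windows of 10 codons with the most events show what these sequences look like. They are given for the 5 tracts whose density was called higher than that of their coding sequence, for the tract of SET with a run of aspartate codons, and for the 3 tracts with the lowest ratios among those tested. Each is written 5′ to 3′ on the strand of the gene, as DNA, on GRCh38, with aspartate codons in capitals.
NCL tract 4, chr2:231460730-231460759, minus strand: GATGATgagGACgagGATGACGACGACGAC
NCL tract 1, chr2:231463230-231463259, minus strand: gaaGATagtgaaGATgaggaaatgtcagaa
ANP32B tract 1, chr9:98011294-98011323, plus strand: GACGATgagGATggtgaagaagaggagttt
PELP1 tract 1, chr17:4672216-4672245, minus strand: GATgaagaggaatattttgaagaggaagaa
HSP90B1 tract 2, chr12:103947362-103947391, plus strand: gaaGACacagagcaaGACgaaGATgaagaa
SET tract 1, chr9:128693923-128693952, plus strand: gaaggagaagaaGATGATGATGATGATgaa
NPM1 tract 1, chr5:171392715-171392744, plus strand: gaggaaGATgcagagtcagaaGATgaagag
NUCKS1 tract 1, chr1:205720517-205720546, minus strand: agtgaggaagaacaagaagaggagGATgag
EIF5B tract 2, chr2:99376391-99376420, plus strand: gaggaggaggaggaggaagaagaggaagaa
The window of NCL tract 4 held 74 events over 8 aspartate and 2 glutamate codons. The EIF5B window held 3 events over 10 glutamate codons. The rest of the coding sequence held 407 events per kb in NCL and 58.2 in EIF5B, so these counts do not compare the codons. The window of NCL tract 1 held 87 events with only 7 acidic codons, since a merged tract can include interruptions. Tracts are numbered along the coding sequence from the start codon.

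The tracts were short and rich in glutamate. Their median length was 13 codons, with a range of 10 to 78, and they made up 64206 nt beside 3382839 nt of rest. One tract was found in 954 genes, and 196 genes had 2 or more, up to 7. They held 11532 glutamate codons, 5006 aspartate codons and 4864 others, so glutamate was 69.7% of the acidic codons. A total of 176 tracts had no aspartate codon and 12 had no glutamate codon. GAG was the most frequent codon at 32.95% of tract codons, followed by GAA at 20.9%, GAT at 15.2% and GAC at 8.24%. Purines made up 82.4% of tract nucleotides against 53.5% of the rest. Of the 4 pentamers made of an acidic codon and the GA of the next, GAGGA was found in 90.3% of tracts, GAAGA in 83.99%, GATGA in 65.7% and GACGA in 36.7%, counted on the coding strand in any frame with overlaps allowed. GATGA occurred 39.8 times per kb in tracts and 2.50 times per kb in the rest.

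Crosslinking was denser in acidic tracts than in the rest of the same coding sequences in every library. The tracts held 553, 1660, 140 and 762 events in replicates 1 to 4. In counts scaled to the total of each library (CPM) and per kb, their density was 25.8, 42.7, 17.3 and 66.1, against 6.73, 9.97, 6.62 and 16.8 in the rest of their coding sequences. Coding sequences without a tract had a lower density still, at 3.51, 5.07, 3.92 and 7.91. Since these values mix coding sequences of different levels, the ratio was then computed within each coding sequence and combined over them. Coding sequences with many events still weigh most in it. This ratio was 2.64, 2.89, 1.80 and 2.30 in replicates 1 to 4, or 2.41 ± 0.473 (SD, n = 4), and was above 1 in 4 of 4 libraries. It was 1.42 ± 0.303 when the rest was limited to the exons that hold the tract, and 1.37 ± 0.311 with events inside significant clusters left out but their nucleotides kept in the length, which was above 1 in 3 of 4 libraries. Without the 10 genes with the most tract events it was 1.98 ± 0.417. For tracts of other charged residues found with the same rule, the ratio was 2.26 ± 0.304 for 114 lysine tracts and 2.28 ± 0.568 for 524 tracts of lysine or arginine, and the difference between kinds of tract was not tested.

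The events were concentrated in few tracts. Of the 1443 tracts, 532 held an event and 911 held none, and 61 held at least 10. Only 6 tracts had events in all 4 libraries. The 12 tracts with the most events, from 9 genes, took 1106 of the 3115 tract events (35.5%). Replicate 3 was the shallowest library and stood apart in shape: its 140 tract events lay on 33 positions, or 4.24 events per position, against 1.22 to 1.87 in the others, and only 26 tracts had an event in it. The share of tract nucleotides whose next 31 nt were not unique in the genome was 10.5%, against 6.69% in the rest. Reads from such places could have been lost when only uniquely mapped reads were kept. The ratio over unique nucleotides alone was 2.39 ± 0.441.

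Within tracts, aspartate codons were crosslinked more densely than glutamate codons. Aspartate codons had 3.79, 4.33, 3.19 and 3.39 times the density of the rest in replicates 1 to 4, or 3.68 ± 0.502. Glutamate codons had 2.21, 2.14, 0.609 and 1.32 times that density, or 1.57 ± 0.757, and lay below the rest in replicate 3. The few codons of other residues inside tracts had a ratio of 3.10 ± 0.391, so the lower value was seen for glutamate alone among the 3 kinds of codon. Set directly against aspartate codons of the same genes' tracts, glutamate codons had 0.573, 0.473, 0.245 and 0.353 of the density (0.411 ± 0.143), below 1 in 4 of 4 libraries. The first and second nucleotide are G and A in all 4 codons, and on these alone the value was 0.354 ± 0.179. Outside tracts the same order held with a smaller gap: glutamate codons had 0.639 ± 0.091 of the density of aspartate codons in the same genes.

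**Figure D1:**
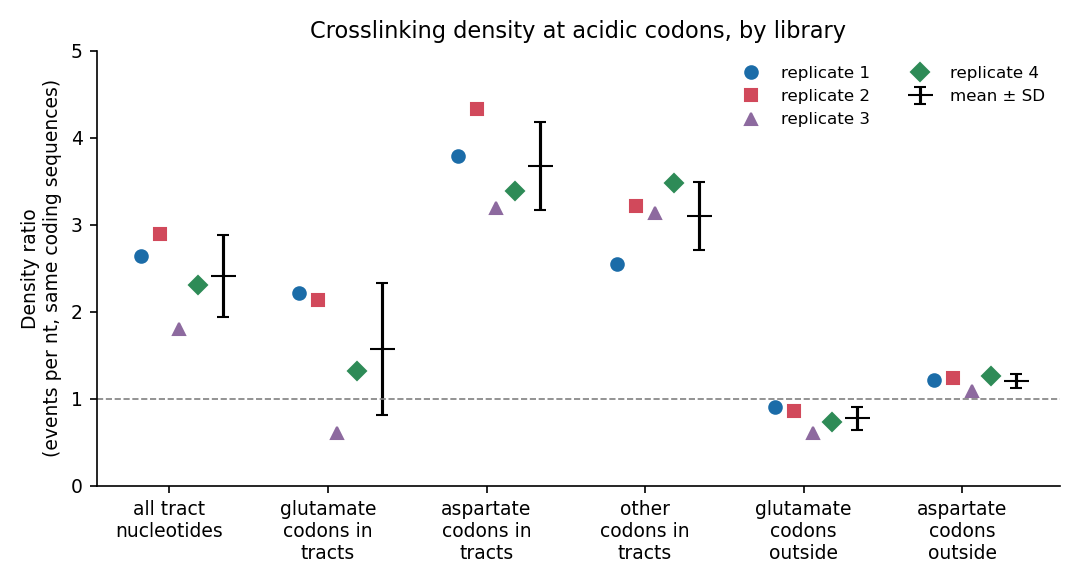
Density ratio (events per nt, linear axis) for each of the 4 libraries, with the mean and SD as a bar; the left 4 columns are relative to the rest of the same coding sequences, and the right 2 are codons outside tracts relative to other codons outside tracts. Aspartate codons in tracts lie between 3.19 and 4.33, glutamate codons in tracts between 0.609 and 2.21, and outside tracts the points lie between 0.604 and 1.26.

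The glutamate values depended on how the position and the rest were defined. The ratio of glutamate codons to the rest was 0.926 ± 0.451 against the rest of the same exons and 0.950 ± 0.523 outside clusters, each above 1 in 2 of 4 libraries. For aspartate codons the same settings gave 2.07 ± 0.382 and 1.79 ± 0.366, above 1 in 4 of 4. When each event was moved 10 nt downstream, into the RNA that the cDNA covers, the order turned: glutamate codons then had 1.23 ± 0.223 times the density of aspartate codons, above 1 in 4 of 4 libraries. The lower value of glutamate codons was thus seen at the crosslinked nucleotide and not 10 nt downstream of it.

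At single-nucleotide level the first G was the densest position of GAT and GAA codons in every library. In GAC and GAG codons it was the densest in replicates 1, 2 and 4 but not in replicate 3. The first G of GAT in tracts had a density 7.66, 8.50, 3.97 and 6.38 times that of the rest in replicates 1 to 4 (6.63 ± 1.98). The value for the first G of GAC was 4.94 ± 3.72, with no event in replicate 3, and those of GAA and GAG were 3.33 ± 1.502 and 1.53 ± 1.16, the latter also with no event in replicate 3. The A that follows was at 2.71 ± 0.476 in GAT, 2.02 ± 1.02 in GAC, 1.77 ± 1.22 in GAA and 0.374 ± 0.347 in GAG. The last nucleotide of the codon was at 1.28 ± 0.290 in GAT, 5.29 ± 4.82 in GAC, 0.894 ± 0.704 in GAA and 1.69 ± 0.626 in GAG, and the value of GAC came with 12.5 in replicate 3 against 2.34 to 3.20 in the others. Outside tracts the first G of GAT was at 1.57 ± 0.396. G was the least crosslinked base of the rest, at 0.707 ± 0.0875 of the other bases, while T was at 1.52 ± 0.269. Even so, G in tracts had 3.83 ± 1.19 times the density of G in the rest, A 1.59 ± 0.478, C 3.01 ± 0.781 and T 2.30 ± 0.680. With each base compared only with the same base, the tract ratio was 2.59 ± 0.422.

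The density was higher in windows with more acidic codons, also in windows with fewer than 8. The windows lay on a fixed grid and tracts were not left out, so windows with fewer than 8 can overlap a tract. Consecutive windows of 10 codons over all coding sequences had 0.944 ± 0.0295 of the mean density of their coding sequence with no acidic codon, 1.20 ± 0.0376 with 4, 1.49 ± 0.180 with 5, 1.74 ± 0.310 with 6 and 2.51 ± 0.137 with 7. On this grid, 428 windows with 8 acidic codons were at 2.04 ± 0.277, and 916 windows with 7 ranged from 2.43 to 2.71. How many of the 916 overlapped a tract was not counted. Windows with 9 and 10 acidic codons were at 1.68 ± 1.06 and 2.48 ± 0.494, and replicate 3 was at 0.0994 with 9. The same order was seen in windows whose acidic codons were all glutamate, at 1.31 ± 0.108 with 4, 1.66 ± 0.144 with 5, 2.06 ± 0.350 with 6 and 2.67 ± 0.520 with 7. With 8 it was 1.36 ± 1.14 over 68 windows with 34 events, from 0 in replicate 3 to 2.38 in replicate 1. Windows whose acidic codons were all aspartate were fewer and stayed nearer to 1 in replicates 1 and 2, at 1.08 and 1.04 with 4 codons and 1.07 and 1.09 with 5, where the glutamate windows were at 1.498 and 1.58. In replicates 3 and 4 the aspartate windows were at 1.96 and 0.958 with 4 codons and at 4.23 and 1.67 with 5, on 146 windows with 63 events. The higher density of aspartate codons within tracts was thus not matched by a higher density of windows with aspartate alone in replicates 1 and 2. Purine content went with density where acidic codons were few. Windows with at most 2 acidic codons had 0.959 ± 0.0538 with under 15 purines of 30 nt and 1.55 ± 0.122 with 26 to 30. Windows with 6 or 7 acidic codons were at 1.66 ± 0.522 with 15 to 19 purines, 2.26 ± 0.443 with 23 to 25 and 1.87 ± 0.116 with 26 to 30. With 8 to 10 acidic codons the values were 2.41 ± 0.244 with 20 to 22 purines, 2.43 ± 0.452 with 23 to 25 and 1.57 ± 1.07 with 26 to 30, so the purest purine windows were not the densest there.

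**Figure D2:**
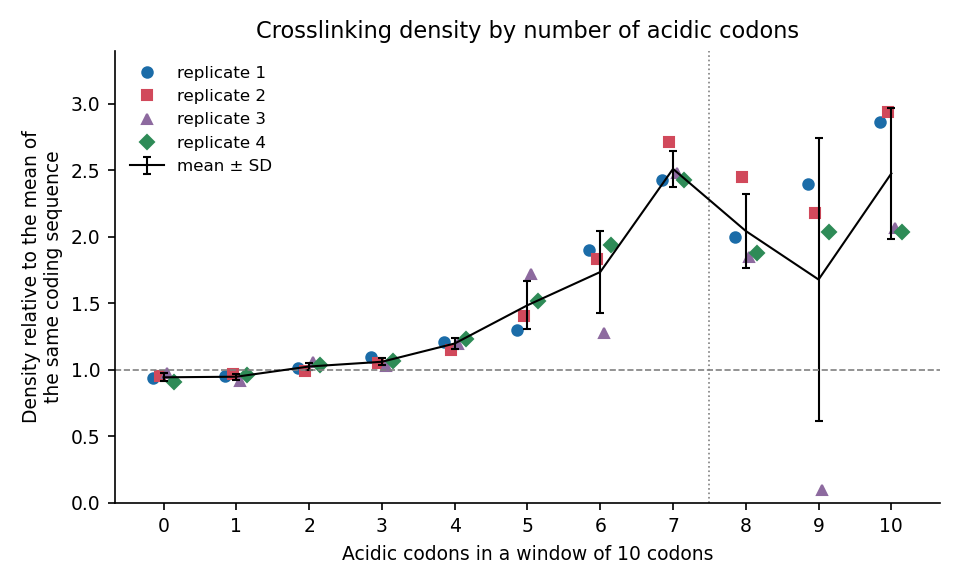
Crosslinking density of windows of 10 codons relative to the mean of the same coding sequence (vertical axis, linear) by the number of acidic codons in the window (horizontal axis), for 4 libraries with mean and SD; the dotted line marks the threshold of 8. The mean goes from 0.944 with none to 2.51 with 7, and replicate 3 falls to 0.0994 at 9. Windows left of the line can overlap a tract.

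Density was highest at the upstream border of the tract in replicates 1, 2 and 4, and after its end in replicate 3. In steps of 10 nt, it was 3.56 ± 0.865 times that of the rest in the last 10 nt before the tract and 2.91 ± 1.16 in its first 10 nt. In replicate 3 it was 2.53 and 1.28 at these places, 3.07 in the last 10 nt of the tract and 3.70 in the 10 nt after it. The 30 nt upstream had a ratio of 2.40, 3.19, 1.99 and 3.79 in replicates 1 to 4 (2.84 ± 0.804), and the 30 nt downstream 2.05 ± 0.451. The first 30 nt of tracts were at 2.28 ± 0.765 and the last 30 nt at 1.83 ± 0.211. These stretches share nucleotides in most tracts, whose median length was 13 codons, and are the same in the 275 tracts of 10 codons. From 31 to 90 nt away the values were 1.33 ± 0.250 upstream and 1.43 ± 0.168 downstream. The flanks are themselves part of the rest in the main ratio. With 30 nt on either side left out of the rest, that ratio was 2.67 ± 0.549.

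**Figure D3:**
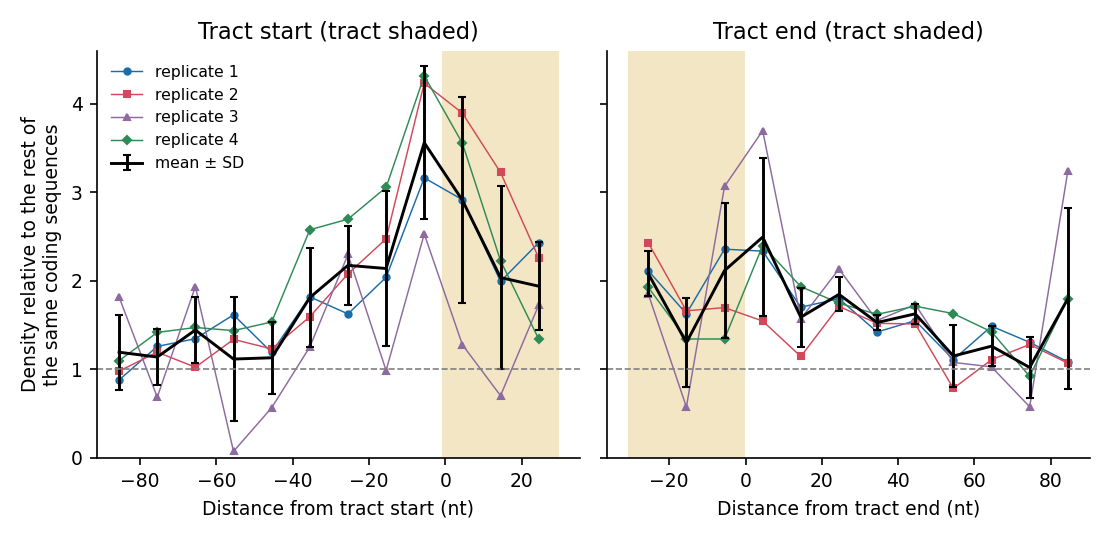
Crosslinking density relative to the rest of the same coding sequences (vertical axis, linear) in steps of 10 nt by distance from the tract start (left) and tract end (right), with the tract shaded, for 4 libraries with mean and SD. The mean peaks at 3.56 in the 10 nt before the start and approaches 1 beyond 40 nt upstream. The shaded stretches of the left and right panels share nucleotides in most tracts.

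On average over libraries, long tracts and tracts with more than 25% aspartate had the higher ratios. In replicate 3 this held for aspartate but not for length. The 100 tracts of 25 codons or more were at 3.08 ± 1.34, those of 15 to 24 codons at 2.59 ± 0.421, those of 11 to 14 at 1.68 ± 0.0923 and those of exactly 10 at 2.07 ± 0.402, so the order was not strict. In replicate 3 the longest class was the lowest, at 1.22, and tracts of 10 codons were at 2.41. Tracts without aspartate were at 1.85 ± 0.426, tracts with up to 25% aspartate among the acidic codons at 2.08 ± 0.889, with 25 to 50% at 2.82 ± 0.269 and with more at 2.49 ± 0.288. In replicate 3, tracts with none were at 1.44, those with up to 25% at 0.856, those with 25 to 50% at 2.48 and those with more at 2.48. Tracts with GATGA were at 2.59 ± 0.459 and those without at 1.68 ± 0.506. By place along the coding sequence, split in 3 equal stretches, the values were 2.54 ± 0.276, 2.29 ± 0.277 and 2.45 ± 1.02 from its start to its end. These classes overlap within their SD in most pairs, and no class was tested against another.

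Significant clusters were called by the authors from these same events and are not independent of the ratios above. In the pooled libraries they covered 9.39% of tract nucleotides and 1.48% of the rest. Within coding sequences the share in tracts was 3.75 times that of the rest. Such a cluster was found in 150 tracts (10.4%) of 117 genes, and each of the 12 tracts with the most events had one. The lists of single libraries were shorter, with 13, 66, 6 and 39 tracts in replicates 1 to 4, and gave ratios of 5.92, 5.12, 2.84 and 5.51.

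Single tracts were compared with the rest of their coding sequence by edgeR's quasi-likelihood test, together with all other coding sequence cut into pieces of 20 codons, and p-values were adjusted by Benjamini-Hochberg over all 2171 features with at least 5 events expected from the rest. Only 29 of the 1443 tracts reached this depth. Of these, 5 were called higher at an adjusted p below 0.05, where 0.875% of all features were called higher, and 0 were called lower, where 2.67% of all features were called lower. At an unadjusted p below 0.05 there were 10 tracts, and the share of all features at that limit was not counted. The log2 ratio was above 0 in 25 of the 29 tracts with a median of 1.14, beside a median of -0.63 over the other pieces. The number of calls moved with the libraries included: 1 tract was called without replicate 1, 0 without replicate 2, 11 without replicate 3 and 0 without replicate 4. Over all 2171 features, 7 were called higher and 19 lower without replicate 1, and 33 and 55 without replicate 3. The counts were 1 higher and 0 lower without replicate 2 and likewise without replicate 4, against 19 and 58 with all libraries. The log2 ratios of the 5 tracts stayed above 0 in each case, from 1.74 for HSP90B1 tract 2 without replicate 2 to 3.64 for PELP1 tract 1 without replicate 3. DESeq2 called 7.

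NCL encodes nucleolin, an abundant nucleolar RNA-binding protein that acts in ribosome assembly, and had 4 tracts in exons 2 to 5 that share the same rest. Its tract 1 held 19, 65, 20 and 38 events in replicates 1 to 4 over 18 codons, and the rest of the coding sequence held 122, 348, 39 and 212 over 1773 nt. That is a density ratio of 5.11, 6.13, 16.8 and 5.89, higher in every library, with a log2 ratio of 2.87 ± 0.657 (SE, edgeR adjusted p = 0.00126). It was the only tract still called without replicate 1, with an edgeR adjusted p of 0.0300. Tract 4 of NCL, of 42 codons, held 55, 74, 23 and 42 events, with ratios of 6.34, 2.99, 8.30 and 2.79 and a log2 ratio of 2.17 ± 0.643 (edgeR adjusted p = 0.0251). These 2 tracts were the only ones of the 12 with events in replicate 3. Tract 3 held 39, 65, 0 and 19 events (log2 ratio 1.41 ± 0.697, edgeR adjusted p = 0.272) and tract 2 held 19, 41, 0 and 18 (0.75 ± 0.678, edgeR adjusted p = 0.615), and neither passed the test. In all, 537 of the 1258 NCL coding events (42.7%) lay in tracts that make up 16.8% of the coding sequence.

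The other tracts called higher had no event in replicate 3. ANP32B, a nuclear acidic protein that binds histones, had 13, 54, 0 and 21 events in its tract 1 of 53 codons, against 3, 15, 0 and 10 in 537 nt of rest. The log2 ratio was 3.34 ± 0.887 (edgeR adjusted p = 0.0105), and 79.9% of the events of the coding sequence lay in both of its tracts. PELP1, a nuclear coregulator of steroid receptors, had the longest tract of all, with 78 codons of which 62 encode glutamate. It held 16, 28, 0 and 15 events against 10, 49, 11 and 15 in 3156 nt of rest, with a log2 ratio of 3.02 ± 0.861 (edgeR adjusted p = 0.0207). HSP90B1, the HSP90 of the endoplasmic reticulum, had 3, 26, 0 and 13 events in tract 2 of 10 codons near its end, and 67, 167, 47 and 145 in 2349 nt of rest. The log2 ratio was 2.40 ± 0.763 (edgeR adjusted p = 0.0481), and a single nucleotide, the C of a GAC codon, held 16 of its 42 events. Without replicate 1, without replicate 2 or without replicate 4 none of these calls was kept, while the log2 ratios were 3.18, 3.17 and 3.63 for ANP32B, 2.50, 3.00 and 2.67 for PELP1 and 2.56, 1.74 and 2.09 for HSP90B1.

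The 12 tracts with the most events were chosen by their pooled counts, so a high density in them is partly built in. The density was above the rest in all of replicates 1, 2 and 4 for 12 of these 12 tracts. Replicate 3 had no event in 10 of them, where the density of the rest would give between 0 and 2.36 events, so a tract less dense than its rest could not be told from an equal one in that library. A count of 0 there allows up to 23.9 CPM (3 counts) if events are independent, and NCL tract 3 was at 106 to 117 CPM in the other libraries. Tract events of replicate 3 lay at 4.24 per position, so independence may not hold, and the difference for this tract was not tested. PTMA, which encodes the small and very acidic nuclear protein prothymosin alpha, had 27, 65, 0 and 44 events in tract 1 and 7, 25, 2 and 36 in only 192 nt of rest. SET, a histone chaperone and phosphatase inhibitor, had 5, 26, 0 and 33 events in its tract, whose window above holds 5 GAT codons in a row. HMGB2, a DNA-bending chromatin protein with an acidic tail, had 10, 31, 0 and 11. NEFM, the medium chain of neurofilaments, had 17, 63, 0 and 19 in tract 2 with 1 aspartate codon, and ATAD2, a chromatin-bound ATPase, had 2, 18, 0 and 9. None of these 5 was called: the log2 ratios of the 4 that could be tested ran from 1.18 ± 0.716 for NEFM to 2.03 ± 0.841 for HMGB2, and ATAD2 was under the depth needed. Only 23.8% of the nucleotides of PTMA tract 1 and 19.9% of SET tract 1 were followed by 31 nt unique in the genome, so their counts may be incomplete. The nucleotide with the most events was in an aspartate codon in 7 of the 12 tracts, in 5 of them the first G of GAT. It was in a glutamate codon in 2 and in another codon in 3. The 12 tracts came from 9 genes, and the 4 NCL tracts were among the 7. Aspartate made up 34.9% of the acidic codons of these 12 tracts, and the count was not tested against that share.

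**Figure D4:**
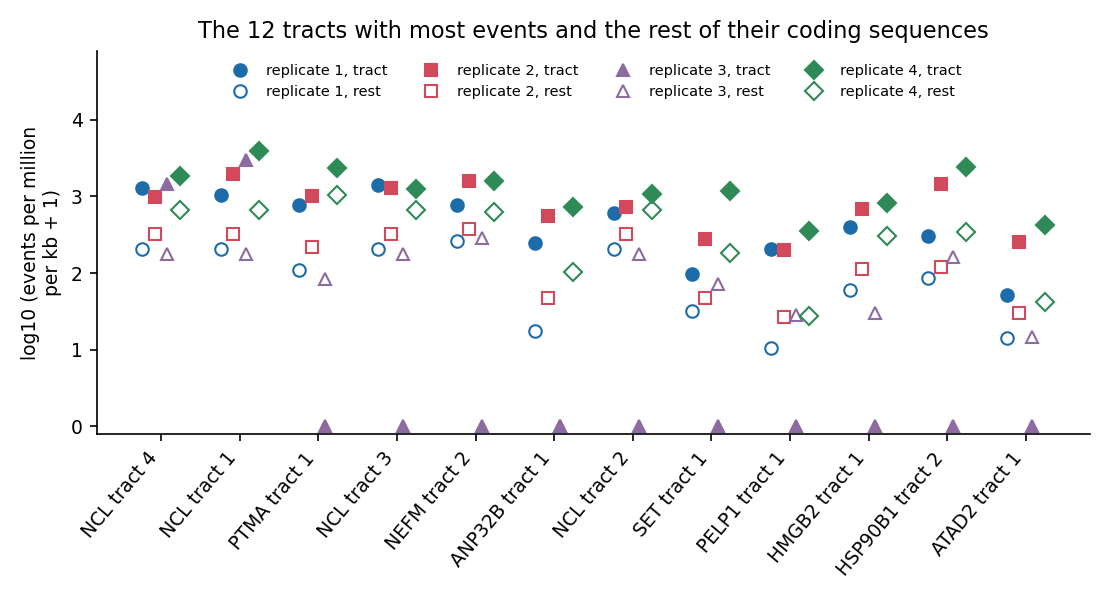
Crosslinking density, as log10 of CPM per kb plus 1, in the 12 tracts with the most events (filled) and in the rest of their coding sequences (open), for each library. In replicates 1, 2 and 4 each filled point lies above the open one of its library, and in replicate 3 the tract is at 0 in 10 of the 12.

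The tracts with the lowest log2 ratios among the 29 tested did not pass the test. NPM1, the nucleolar histone chaperone nucleophosmin, had 0, 0, 0 and 2 events in tract 1 and 2, 5, 0 and 18 in tract 2. Their log2 ratios were -2.16 ± 1.196 (edgeR adjusted p = 0.346) and 0.02 ± 0.841 (edgeR adjusted p = 0.994). No nucleotide of either NPM1 tract was followed by 31 nt unique in the genome, so the low count of tract 1 could also be a loss of reads, which was not tested. NUCKS1, a chromatin-associated protein, had 3, 3, 0 and 2 events in a tract of 11 codons with 1 aspartate (log2 ratio -0.56 ± 0.804, edgeR adjusted p = 0.774). EIF5B, the GTPase that joins ribosomal subunits at initiation, had 0, 2, 0 and 3 events in tract 2 of 30 codons with 24 glutamates and 1 aspartate (-0.22 ± 0.971, edgeR adjusted p = 0.936). PTMS, the parathymosin relative of PTMA, was at -0.05 ± 1.18 (edgeR adjusted p = 0.990).

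Tracts without an event were found both in coding sequences with no event at all and in those with many. MYT1L, a neuronal transcription factor, had a tract of 57 codons, the second longest, with 0 events, and the 3348 nt of its rest also held 0. Of the 1150 coding sequences with a tract, 209 had no event at all. Among the 258 with at least 50 pooled events, the tract was denser than the rest in 164 (63.6%) and held no event in 65, with a median ratio of 1.66. Where at least 3 events were expected in the tract, it was denser in 56 of 63, with a median ratio of 2.07.

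The genes were also read by function, from lists of genes known for acidic stretches. The lists were of such genes, so how many held a tract is not a result. The ratios are of pooled counts, with no test. Over all functions, the tract was denser than the rest in 63.6% of the 258 coding sequences with at least 50 pooled events. It was denser in 56 of the 63 of them where at least 3 events were expected in the tract. List genes were not held to these depths, and no group was tested against these shares. Of 18 genes of the nucleolus and ribosome assembly, 9 had a tract, with 596 events of which NCL gave 537, and the tract was denser than the rest in 7 of the 9. Beside NCL, the ratio was 5.27 in WDR43 (14 events) and 4.06 in CEBPZ (8 events), both ribosome assembly factors, and 1.09 in NPM1. Of 18 histone chaperones and high-mobility-group proteins, 16 had a tract, with 569 events, and the tract was denser in 14. The ANP32 family was at 9.86 for ANP32B (111 events), 3.30 for ANP32A (35 events) and 3.06 for ANP32E (54 events). DEK, an oncoprotein that binds chromatin, was at 2.92 (24 events), and the nucleosome assembly protein NAP1L1 at 1.65 (27 events). SUPT16H, a subunit of the FACT histone chaperone, was at 0.399 with 2 tract events. The ratio of this group over libraries was 2.77 ± 1.42, from 0.811 in replicate 3 to 4.04 in replicate 2.

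The remaining groups rested on fewer events, and their counts of denser genes stand beside the same shares over all functions. Of 8 heat-shock and endoplasmic reticulum chaperones, 5 had a tract and each was denser than the rest, with 110 events in all. HSP90B1 was at 5.33 (58 events), PDIA4 at 4.11 (9 events), the lectin chaperones CANX at 3.93 (13 events) and CALR at 1.68 (13 events), and HSP90AB1 at 2.07 (17 events), with no event in replicate 3 for the whole group. Of 17 chromatin remodelling and centromere genes, 12 had a tract, with 73 events, and 8 were denser in it, among them the centromere protein CENPB at 4.71 (16 events) and the remodeller CHD8 at 4.58 (10 events). CHD1 and CHD7 had no tract event beside 145 and 141 in the rest. Of 14 cytoskeleton genes, 4 had a tract, and the neurofilament genes NEFM and NEFL, at 2.68 (119 events) and 5.24 (12 events), were denser, while CALD1 and TUBB2A had no tract event. Of 18 RNA binding and splicing genes, 7 had a tract, with 44 events, and 6 were denser, from 1.02 in HNRNPU (13 events) to 3.49 in the helicase DDX46 (6 events). Of 11 translation factors, 5 had a tract, with 24 events, and 2 were denser, EIF5 at 2.72 (6 events) and EIF4G1 at 2.66 (11 events).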

How the data were processed

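The authors removed PCR copies by their random barcodes, mapped the reads with STAR (version not given in the sources used here) to GRCh38 with GENCODE 27, kept uniquely mapped reads and deposited, per nucleotide and strand, counts of unique cDNAs without normalisation. They also deposited significant clusters (iCount, false discovery rate under 0.05), with the summed counts of each cluster. The pooled table equalled the sum of the 4 libraries.

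Positions were placed on GRCh38 coding sequences (Ensembl canonical transcripts) of GENCODE 44, later than the authors' annotation. Tracts, codons and the rest were compared by Mantel-Haenszel ratios of events per nt, stratified by coding sequence, in each library, and are given as mean ± SD over 4 libraries with no p. Single tracts were tested in edgeR 4.0.16 (R 4.3.3, library as block, offset of length times library total). DESeq2 1.42.0 was an alternative. The members, the gene lists and the tests were chosen with earlier results of these data known. Named tracts were the 12 with the most events, the called ones, the 5 lowest, the 3 longest and up to 4 genes per list with the most tract events. Other list genes named were chosen after their values were seen.

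The edgeR step was tested on simulated data of 2171 features: 46% of 50 features raised by 2 on the log2 scale were called, 2% of those raised by 1, 4% of those lowered by 2, and 0 of 2171 with nothing changed. The simulated counts were drawn independently with 1 preset dispersion that was not estimated from the data, so these shares may not carry over. Depth was 125694 to 604816 events a library, so single tracts outside the most abundant mRNAs are imprecise; floors cover counting error only. Python 3.11.15, numpy 2.4.6, pandas 2.3.3 and matplotlib 3.10.9 were used. Alternatives changed the tract rule, counting, position, uniqueness, rest, weights, filters and libraries.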

Additional observations from a re-analysis of the deposited data

Results flagged for a closer look

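Of 168 values compared over the 4 libraries, 12 had a library far from the other 3, where chance alone would mark about 1 in 20 values; 11 of the 12 were in replicate 3. In replicate 3 the windows with 9 acidic codons were at 0.0994 (others 2.04 to 2.40), those with 6 at 1.27 (1.83 to 1.94), windows with 6 glutamate codons and no aspartate at 2.58 (1.86 to 1.90) and windows with 4 aspartate codons and no glutamate at 1.96 (0.958 to 1.08). Tracts without GAGGA were at 4.67 (2.70 to 2.86), nucleotide 2 of GAC in tracts at 0.503 (2.40 to 2.69) and its nucleotide 3 at 12.5 (2.34 to 3.20). Outside tracts, nucleotide 3 of GAA was at 0.423 (0.884 to 0.918), GAT at 0.959 (1.27 to 1.33) and its nucleotide 2 at 0.555 (1.02 to 1.06). NCL tract 3 had 0 CPM in replicate 3 and 106 to 117 in the others. In replicate 2, windows with 1 aspartate codon and no glutamate were at 0.982 (0.961 to 0.963). Replicate 3 had the fewest events and the shorter random barcode, and their part in these values was not tested.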

How the results depend on the processing

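The mean ratio of acidic tracts stayed above 1 under all 19 alternatives, from 1.37 to 4.13; the ratio of aspartate codons also did, from 1.79 to 13.7. The highest values, 4.13 for tracts, 6.65 for glutamate and 13.7 for aspartate codons, came from weighting coding sequences equally, where the 0.5 added to each count raises short tracts with no event. Events outside the pooled clusters gave 1.37 for tracts, 0.950 for glutamate and 1.79 for aspartate codons, and the rest of the same exon 1.42, 0.926 and 2.07; the cause was not tested. Moving events 10 nt downstream gave 2.99 for glutamate and 2.88 for aspartate codons, and turned glutamate over aspartate from 0.411 to 1.23. Aspartate codons were at 4.18 with 16 of 20 codons, at 3.10 with each position counted once and, by alternatives chosen after seeing the data, at 2.79 without the 10 genes with the most tract events and at 4.20 without flanks in the rest. Leaving out 1 library kept each of these mean ratios on its side of 1. Clusters of replicates 1 and 4 alone gave 5.92 and 5.51 against 3.75.

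The 5 tracts called became 3 with no replicate block (tract and rest of 1 library are paired by that library), 0 with no low-count filter, where 408690 features were tested, 3 with at least 10 expected events, 9 with each position counted once and 3 with unique 31-mers only; leaving out 1 library gave 0 to 11. Called features in all were 10 higher and 44 lower with no replicate block, against 19 and 58. With each position counted once, 60 of all 919 features were called higher. Features called higher were 10 of 536 with at least 10 expected events, 11 of 1926 with unique 31-mers and 14 of 408690 with no low-count filter. None of the 5 called log2 ratios changed sign. Tracts that were not called changed sign as follows. NPM1 2 was at -0.080 by DESeq2, -0.079 with no low-count filter and -0.0068 with TMM factors, PTMS 1 at 0.0046 with no replicate block and 0.59 with positions counted once, and HNRNPU 1 at -0.22 with positions counted once and -0.092 with unique 31-mers. With 1 library left out, the ranges were -0.28 to 0.70 for NEFM 1, -1.08 to 0.15 for EIF5B 2, -0.87 to 0.51 for NPM1 2, -0.87 to 0.60 for PTMS 1, -0.55 to 1.03 for HSP90AB1 1, -0.19 to 0.64 for PTMA 2 and -0.42 to 0.72 for HNRNPU 1. Depth limits single tracts most.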
